A study of Oryza sativa with 2 samples.

Results

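MYB genes encode transcription factors with a DNA-binding domain built of MYB repeats, and here the group comprised 95 of the 14709 rice genes in a list of OsbHLH002 binding peaks. The members were chosen by the word MYB, in any case, in the gene description, which also takes in myb-like, myb-related and myb/SANT proteins. LOC_Os01g18240, the rice MYB61 gene, was among them, and LOC_Os10g41200 was set aside by the rule. The study mapped where OsbHLH002, a rice factor of the basic helix-loop-helix (bHLH) type, binds, by chromatin immunoprecipitation and sequencing. The immunoprecipitated library (IP) was made with an antibody against FLAG, and the input library came from the same material. Both were from transgenic rice plants labelled Osbhlh002-1 gOsbHLH002-3FLAG, so the IP and the input share the mutant background and the tagged copy. The sources used here do not give the tissue, age or number of plants, or what drove the tagged copy, and no untagged control was used here. With 1 IP and 1 input there was no replicate, so no difference below has a replicate check and no test between groups was made.

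MYB factors regulate secondary wall deposition, phenylpropanoid synthesis, phosphate and sugar responses, the circadian clock and the cell cycle in plants. The large R2R3 class has a pair of MYB repeats, and MYB3R proteins have an additional one. bHLH proteins, which recognise the E-box, often act with MYB proteins on shared promoters. In secondary walls, MYB factors stand between NAC factors above them and the genes for cellulose, xylan and lignin below them. The series carries secondary cell wall formation in its title, which makes a peak at a wall MYB gene relevant to it.

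Fold enrichment is the ratio, as the authors deposited it, of IP to background at a peak's highest point, the summit. The q is the authors' p-value after correction for multiple testing, as deposited. The list held only genes with a peak near their start, so each MYB gene in it had a peak by construction, and a MYB gene outside it may still be bound. The 95 members carried 95 distinct peaks out of 12487, so no peak was shared by a pair of members. Peaks near the threshold rested on few fragments. The members had a median of 21 IP fragments at the summit (range 11 to 189) over a median local background of 5.52, against 20 fragments over 5.19 for all listed genes. Intervals given below are 95% exact Poisson intervals of the IP count and cover counting error only, without the error of the background or the spread between plants.

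The peak at MYB61 was moderate in strength and placed almost on the gene start. LOC_Os01g18240, known in rice as a regulator of cellulose synthesis in the secondary wall, is a minus-strand gene of chromosome 1 (10217247 to 10219696). Its peak spanned bases 10219315 to 10219881 (567 bp), with the summit at 10219751, 55 bp upstream of the start. The summit held 21 IP fragments over a background of 4.72. That made a fold of 3.85 (2.45 to 5.79) and a −log10 q of 5.86. Its fold ranked 34 among the 95 members and 3827 among the 12487 peaks, above the median of 3.13 for all listed genes.

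Of 6 identifiers entered as secondary wall MYB genes from general knowledge, 3 were in the list and 3 were not. Besides MYB61 these were LOC_Os04g50770 and LOC_Os09g36730, both described only as MYB family transcription factors. LOC_Os04g50770 (chromosome 4, 30028734 to 30030685, minus strand) had 20 IP fragments over a background of 4.72, a fold of 3.67 (2.31 to 5.58). Its summit lay inside the gene, 1406 bp downstream of the start and in the 3′ part of a gene of 1952 bp. LOC_Os09g36730 (chromosome 9, 21189381 to 21190738, minus strand) had 19 fragments over 4.98, a fold of 3.35 (2.08 to 5.13), with the summit 371 bp upstream. These 3 genes thus had nearly the same fold, with intervals that overlap broadly, and differed in where the summit lay. All 3 passed a q of 0.05, as did 90.1% of all listed genes, and stood above the median fold, which 50.8% of all listed genes reached, so neither count sets them apart.

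**Figure D1:**
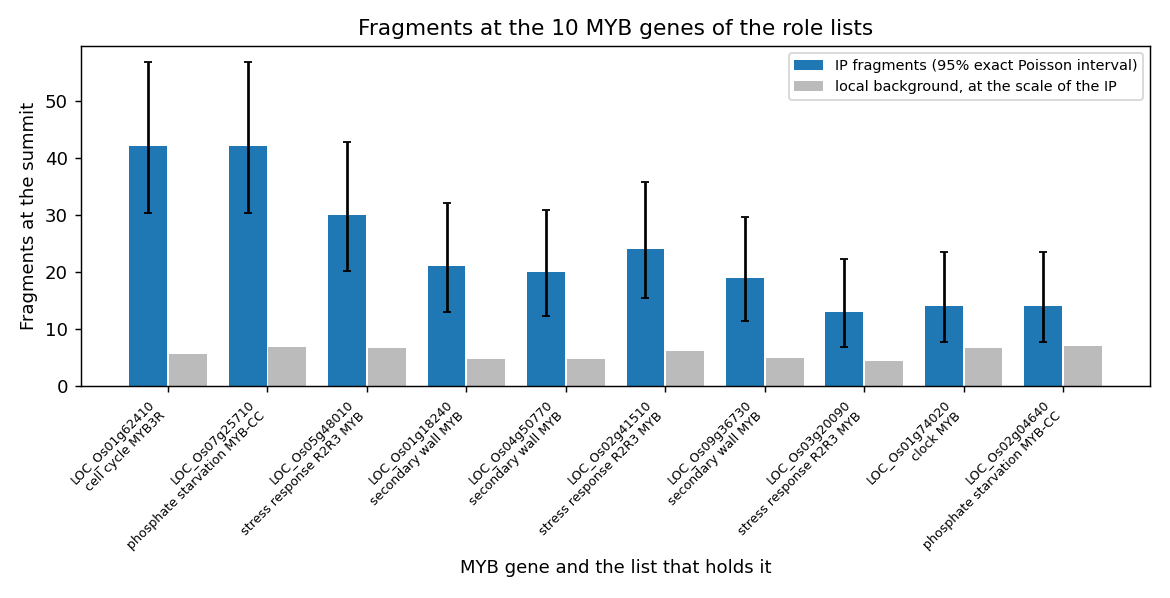
IP fragments at the summit (blue bars, left, with 95% exact Poisson intervals) and the background at the scale of the IP (grey bars, right) for the 10 MYB genes in the role lists, ordered by fold. The genes entered as cell cycle and phosphate starvation factors at the left reach 42 fragments each, and the 3 secondary wall genes hold 19 to 21.

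In all, 10 of 25 MYB identifiers entered in 8 role lists had an entry, with a median fold of 3.59. The share of all rice genes with an entry is not known here. Neither this count nor those of the single lists can thus be read as high or low. Of these 10, 8 passed a q of 0.05, a share no higher than the 90.1% of all listed genes. The strongest was LOC_Os01g62410, entered as a cell cycle MYB3R gene, on chromosome 1 from 36122778 to 36128487 (plus strand). It had 42 IP fragments over a background of 5.66, a fold of 6.45 (4.69 to 8.67), with the summit 1044 bp upstream. LOC_Os07g25710, entered as a phosphate starvation gene and described as a myb-like DNA-binding domain protein, lies on chromosome 7 from 14753753 to 14759375 (plus strand). Its 42 fragments over 6.82 gave a fold of 5.50 (4.0004 to 7.39), 188 bp upstream of the start. The other phosphate starvation entry, LOC_Os02g04640, had 14 fragments over 7.08, a fold of 1.86 (1.07 to 3.03) and a q of 0.219, with the summit 367 bp inside the gene. The intervals of these phosphate genes did not overlap, so the gap between their peaks was larger than counting error.

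Among 8 genes entered as stress response R2R3 factors, 3 were listed, and in each the summit lay far downstream of the start. LOC_Os05g48010 had 30 fragments over 6.61, a fold of 4.08 (2.79 to 5.76), with the summit 363 bp past the 3′ end. LOC_Os02g41510 had 24 fragments over 6.14, a fold of 3.50 (2.30 to 5.14), 1637 bp past the 3′ end. LOC_Os03g20090 had 13 fragments over 4.44, a fold of 2.57 (1.46 to 4.27), 1775 bp into a gene of 2244 bp. The clock entry LOC_Os01g74020 was weak, with 14 fragments over 6.61, a fold of 1.97 and a q of 0.135. Its summit was 914 bp past the 3′ end and 607 bp upstream of LOC_Os01g74010, a cyclase/dehydrase gene that carried the same peak. The 2 sugar response, 1 gibberellin and 1 anthocyanin entries were not in the list.

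As a group the MYB genes had peaks of about the same strength as the list. Their median fold was 3.30 (quartiles 2.44 and 4.21), against 3.13 (quartiles 2.57 and 4.11) for all listed genes. A q of 0.05 or less was reached by 85 of the 95 members (89.5%), where the background was 90.1% of all listed genes. A fold of 4 or more was reached by 30 members (31.6%), against 27.6% of all listed genes. For a fold of 6 or more it was 8 members (8.42%), against 7.54%. In each of these counts the share of members was near the background, so none of them sets the MYB genes apart. LOC_Os06g45840 at 4.002 and LOC_Os03g22560 at 3.88 were the members on either side of the fold of 4. Peak width was also alike, with a median of 453 bp for members and 450 bp for all listed genes, as was gene length, with medians of 2588 and 2610 bp.

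**Figure D2:**
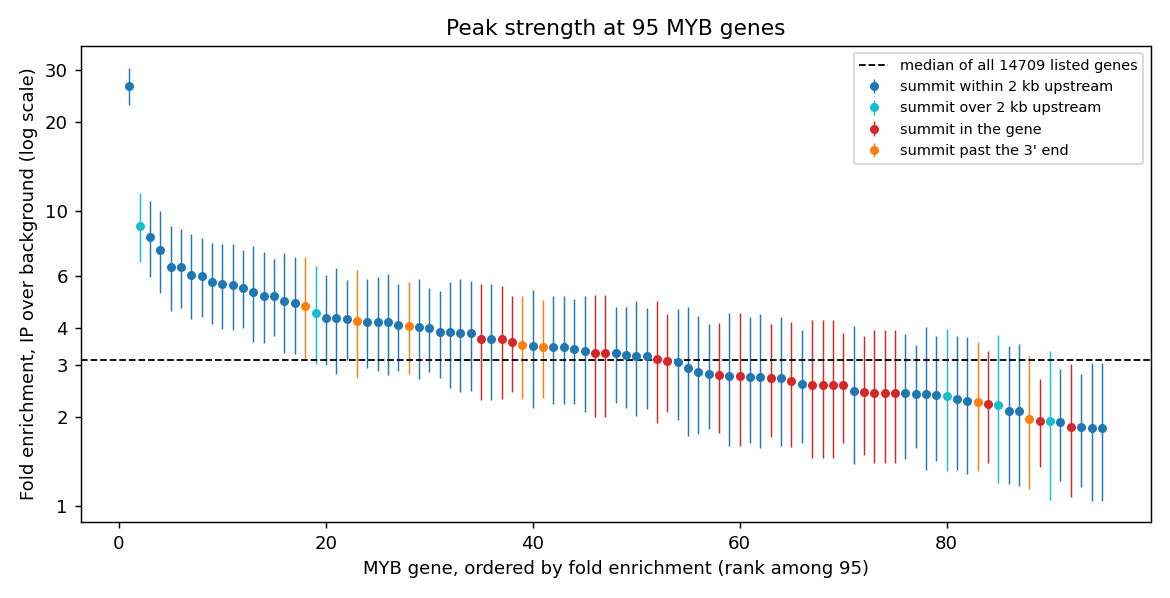
Fold enrichment (log scale) of the 95 MYB genes in order of rank, with 95% exact Poisson intervals of the IP count and colours for where the summit lay. LOC_Os03g56234 stands alone at 26.6, and from rank 2 downward the folds fall from 8.89 to 1.84, past the dashed median of all listed genes at 3.13.

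LOC_Os03g56234, described as a myb/SANT domain protein, had by far the strongest peak of the group. SANT domains resemble MYB repeats and are found in chromatin-modifying proteins. It is a minus-strand gene of chromosome 3 (32034966 to 32040934), with a peak over bases 32039382 to 32041876. At 2495 bp this peak was the widest of the group. At the summit, 54 bp upstream of the start, there were 189 IP fragments over a background of 6.14. The fold was 26.6 (23.0 to 30.7), rank 60 of 12487 peaks, with a −log10 q of 201. The lower end of this interval was above the upper end for each of the other 94 members. A further listed peak, assigned to the 40S ribosomal protein S29 gene LOC_Os03g56241, had its summit 2120 bp upstream of the start of LOC_Os03g56234 and a fold of 3.59. The other member described as myb/SANT, LOC_Os01g08680, had a fold of 1.92 and a q of 0.0675, so the shared description did not go with shared strength.

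The next strongest peaks lay well upstream of their genes. LOC_Os01g50110 (chromosome 1, 28796516 to 28797732, plus strand) had 55 IP fragments over 5.30, a fold of 8.89 (6.73 to 11.5). Its narrow peak of 411 bp had the summit 2060 bp upstream, just outside the 2000 bp window that ties peaks to genes here. LOC_Os02g47744 (chromosome 2, 29190320 to 29195573, plus strand) had 45 fragments over 4.65, a fold of 8.14 (5.98 to 10.8), 604 bp upstream. LOC_Os02g42850 (chromosome 2, 25759840 to 25763028, plus strand) had 39 fragments over 4.44, a fold of 7.35 (5.28 to 9.99), 867 bp upstream, in a peak of 2472 bp. LOC_Os02g09480, a myb-like DNA-binding domain gene, had 36 fragments over 4.72, a fold of 6.47, with the summit exactly 2000 bp upstream. The intervals of these 4 genes overlap, so their order is not fixed by these counts.

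Nearer to the start were several other strong peaks. LOC_Os08g25799, described as a Myb transcription factor, had 36 fragments over 5.09, a fold of 6.08 (4.31 to 8.35), 78 bp upstream. LOC_Os01g64360 had 42 fragments over 6.14, a fold of 6.03 (4.38 to 8.10), 57 bp upstream. LOC_Os03g55590 followed at 5.75-fold, 312 bp upstream, and LOC_Os03g31230 at 5.62-fold, 203 bp upstream. LOC_Os04g49450 had a fold of 5.64 with its summit farther off, 1379 bp upstream. With the cell cycle and phosphate starvation entries given above, these are the 12 members of highest fold. In all 12 the summit lay upstream of the gene start. Over all listed genes with a fold of 4 or more it did so in 75.4%. The share at folds as high as those of these 12 was not counted.

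Several further members had well-supported peaks in the region just before the start. LOC_Os11g01480 had 28 IP fragments over 4.44, a fold of 5.33 (3.60 to 7.62), 216 bp upstream. LOC_Os01g19330 had 43 fragments over 7.55, a fold of 5.15 (3.76 to 6.89), 82 bp upstream. LOC_Os01g19970 had 32 over 6.61 (4.34-fold, 234 bp upstream), and LOC_Os08g43550 had 33 over 7.08 (4.21-fold, 163 bp upstream). Each of these 4 genes stood above the list median of 3.13, and in the first pair the whole interval did. Weaker peaks in the same region were those of LOC_Os01g13740 (fold 3.49), LOC_Os02g47190 (3.45), LOC_Os09g01960 (3.40), LOC_Os01g65370 (3.30) and LOC_Os07g43420 (2.39). LOC_Os12g01490 also had its summit there, 186 bp upstream, with 15 fragments over 4.44 and a fold of 2.94 (1.73 to 4.73). LOC_Os11g01480 and LOC_Os12g01490 lie at like positions near the ends of chromosomes 11 (281470 to 283847) and 12 (296616 to 299117), and the intervals of their folds overlap.

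Farther upstream, LOC_Os06g40330 had 31 fragments over 5.19, a fold of 5.17 (3.56 to 7.27), 364 bp from the start. LOC_Os02g46030 had 40 over 8.50 (4.32-fold, 919 bp upstream), and LOC_Os05g37060 had 34 over 7.55 (4.09-fold, 1498 bp upstream). LOC_Os06g08290 had 27 over 5.19 (4.52-fold), with its summit 2104 bp upstream, the farthest of the group on that side. These 4 genes thus had folds from 4.09 to 5.17 over distances from 364 to 2104 bp. Other members with an upstream summit included LOC_Os11g35390 (fold 3.88), LOC_Os03g14100 (3.86), LOC_Os01g03720 (3.45), LOC_Os07g37210 (3.23), LOC_Os09g12770 (3.22), LOC_Os01g63460 (2.76), LOC_Os02g07770 (2.45), LOC_Os01g50720 (2.39) and LOC_Os05g10690 (2.38). Among those with the summit inside the gene were LOC_Os11g45740 (fold 3.59), LOC_Os10g35660 (3.31), LOC_Os01g08160 (3.15), LOC_Os02g09670 (2.78) and LOC_Os07g48870 (2.21). All 28 genes of this paragraph and the one before passed a q of 0.05, as did 90.1% of all listed genes. They were named after their values were seen, so that count is not a result about them.

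Most summits of MYB genes lay upstream. It was so in 66 of 95 members (69.5%), against 63.2% of all listed genes. Within the 250 bp before the start there were 25 members (26.3%), against 21.4% of all listed genes. Within the 250 bp after it there were 5 members (5.26%), against 14.4%. Together 30 members (31.6%) had the summit within 250 bp of the start, against 35.8%. LOC_Os07g04700 at 238 bp and LOC_Os07g31470 at 296 bp were the members on either side of that distance. The 5 members just after the start were LOC_Os02g22020 (45 bp), LOC_Os05g38460 (62 bp), LOC_Os01g41900 (176 bp), LOC_Os01g62660 (188 bp) and LOC_Os07g04700 (238 bp), with folds from 2.57 to 3.31. The differences in these shares from the whole list were not tested.

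**Figure D3:**
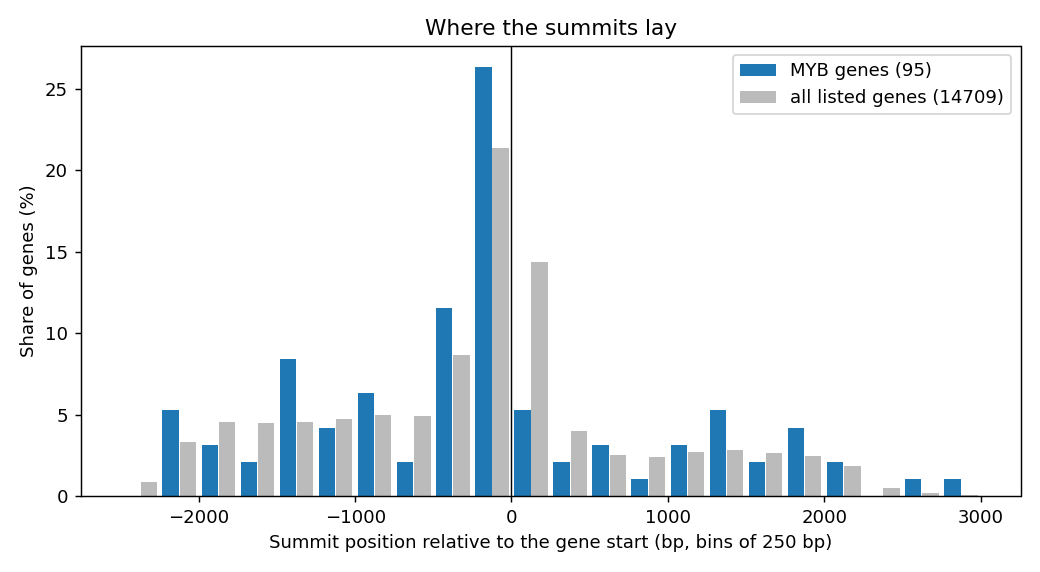
Share of genes whose summit fell in each bin of 250 bp around the gene start, for the 95 MYB genes (blue, left bar) and all listed genes (grey, right bar). The bin just before the start holds 26.3% of MYB genes and 21.4% of all listed genes, and the bin just after it 5.26% of MYB genes and 14.4% of all listed genes.

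The stronger peaks of the group were nearly all upstream. Among the 30 members with a fold of 4 or more, 27 had the summit upstream (90.0%), against 75.4% of all listed genes at that fold. Among the 65 weaker members it was 39 (60.0%), against 58.5% in the whole list. The difference at a fold of 4 or more rests on 30 members and was not tested. The 3 strong members with a downstream summit were LOC_Os03g62100 (fold 4.78), LOC_Os05g51160 (4.23) and LOC_Os05g48010 (4.08). In each of them the summit was past the 3′ end of the gene, by 439, 1075 and 363 bp in that order. None of the 22 members with the summit inside the gene reached a fold of 4, the highest being LOC_Os01g51260 at 3.68. Over all listed genes that class reached a fold of 136, and its share at 4 or more was not counted. The absence among 22 members is thus not set apart from the whole list. Their median fold was 2.61, against 3.49 for the 61 members with the summit within 2 kb upstream. Over all listed genes the same medians were 2.76 and 3.31, so the order of both classes was the same in the whole list.

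**Figure D4:**
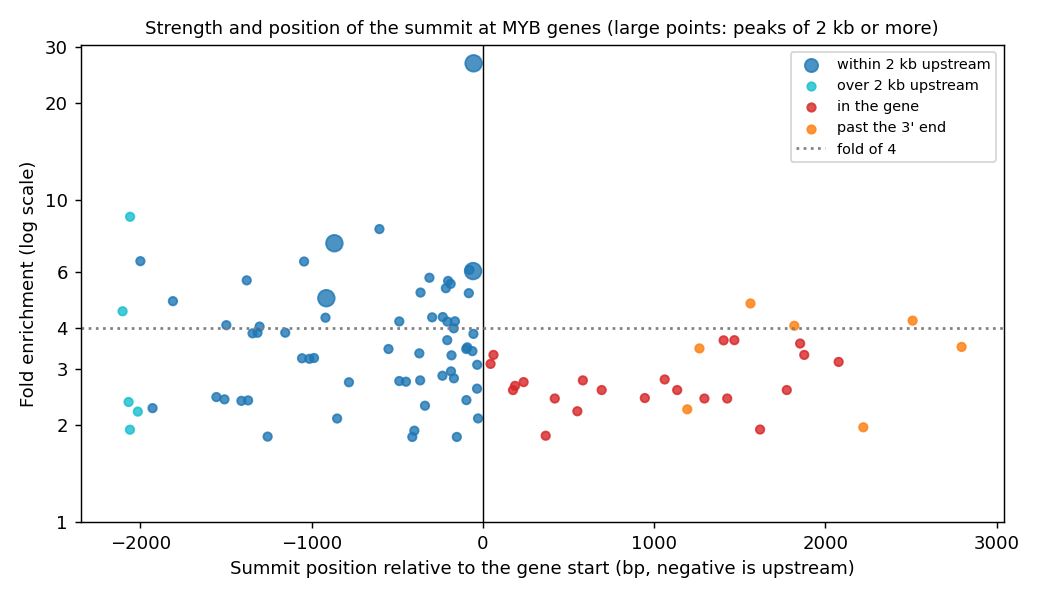
Fold enrichment (log scale) against the position of the summit relative to the gene start (bp, upstream negative) for the 95 MYB genes, coloured by position, with large points for peaks of 2 kb or more. The points above the dotted fold of 4 are 27 upstream summits and 3 past the 3′ end, and no summit inside a gene lies above it.

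The 5 members with the summit nearest the start ran from weak peaks to the strongest of the group. LOC_Os05g41166 had its summit 28 bp upstream but only 13 IP fragments over 5.66, a fold of 2.10 and a q of 0.0981. LOC_Os01g63160 had 21 fragments over 6.14, a fold of 3.08, 33 bp upstream. LOC_Os05g46330 had 20 fragments over 7.08, a fold of 2.60, 34 bp upstream. LOC_Os02g22020 had 27 fragments over 8.02, a fold of 3.10, 45 bp downstream. Next came LOC_Os03g56234 at 54 bp upstream, with its fold of 26.6. A summit close to the start thus did not go with one level of strength: the 25 members within 250 bp upstream ran from 1.84 to 26.6, with a median of 3.68, against a median of 3.31 for all listed genes in that position.

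Wide peaks were few. A width of 2 kb or more was found in 4 members (4.21%), against 2.16% of all listed genes. Besides LOC_Os03g56234 and LOC_Os02g42850 these were LOC_Os06g51260 (2225 bp, fold 4.96, summit 914 bp upstream) and LOC_Os01g64360 (2179 bp). LOC_Os02g09480, at 1952 bp, was just under that width. The 8 members with a peak of 1000 bp or more had a median fold of 6.25, and the 17 with a peak under 300 bp had a median of 2.45. All listed genes in the same classes had medians of 4.96 and 2.61.

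Of the 95 peaks, 21 also carried another listed gene (22.1%, against 29.6% of all listed genes), and none of the other genes was a MYB gene or a transposon. In 13 of these pairs the genes pointed away from each other, in 7 they ran on the same strand and in 1 they faced each other. The summit was nearer to the start of the MYB gene in 12 pairs and nearer to that of the neighbour in 9. Arrangement, nearer start and transposon neighbours were not counted over the whole list, so these counts do not set the MYB genes apart. Some summits were much nearer to the MYB gene. That of LOC_Os02g22020 was 45 bp from its own start and 2151 bp from that of LOC_Os02g22010, a hypothetical protein gene. That of LOC_Os01g64360 was 57 bp from its own start and 1952 bp from that of LOC_Os01g64350, an expressed protein gene. For LOC_Os05g46330 it was 34 bp to its own start and 1788 bp to that of the F-box gene LOC_Os05g46320 (OsFBX173). In other pairs the neighbour was nearer. The peak of LOC_Os04g32570, described as a MYB protein, lay 1265 bp from its start. It lay 2 bp from the start of LOC_Os04g32560, which encodes an ATP-binding subunit of the chloroplast Clp protease. The peak of LOC_Os02g57270 lay 1509 bp from its start and 179 bp from that of the CBS domain gene LOC_Os02g57280. For such peaks the list alone cannot assign the binding to one of the genes.

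**Figure D5:**
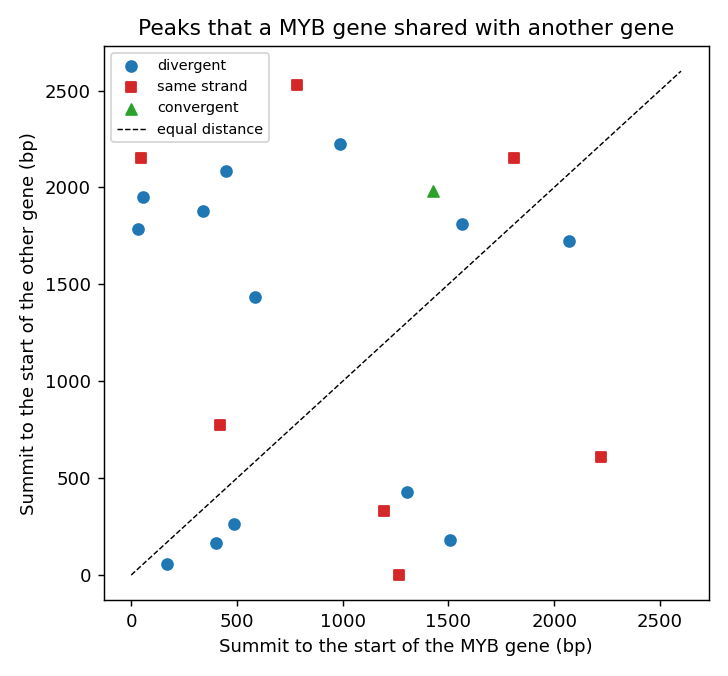
Distance from the summit to the start of the MYB gene (x axis, bp) and to the start of the other gene on the same peak (y axis, bp) for the 21 shared peaks, by arrangement of the genes. The 12 points above the dashed line are nearer to the MYB gene and the 9 below it nearer to the neighbour.

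A few shared peaks were at closely spaced divergent starts, and in 1 of them the summit lay between the starts. LOC_Os06g01670, a myb-like DNA-binding domain gene, and the expressed protein gene LOC_Os06g01680 start 228 bp apart, and the summit between them was 169 bp from the MYB gene and 59 bp from its neighbour (fold 2.80). LOC_Os08g06240 starts 223 bp from LOC_Os08g06230, a nucleolar GTP-binding protein gene, and its summit (fold 2.74) lay 265 bp downstream of the start of that neighbour. LOC_Os01g08680 starts 236 bp from the holocarboxylase synthetase gene LOC_Os01g08690, with the summit 164 bp downstream of the start of the neighbour. LOC_Os03g62100 starts 248 bp from the nicotinate phosphoribosyltransferase gene LOC_Os03g62110, but its summit was 1563 bp downstream of its own start, past its 3′ end. The remaining shared peaks were those of LOC_Os09g23620, LOC_Os03g18480, LOC_Os05g03550, LOC_Os04g51800, LOC_Os01g09640, LOC_Os01g49160, LOC_Os05g49310, LOC_Os08g34960, LOC_Os02g07170, LOC_Os06g19980, LOC_Os06g10330 and LOC_Os01g74020. The median fold of the members' shared peaks was 2.73, and that of the 74 members with a peak of their own was 3.45. In the whole list both medians were 3.13.

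At the weak end, 10 members (10.5%, against 9.93% of all listed genes) had a q above 0.05. The lowest were LOC_Os01g36460 and LOC_Os02g45670, each with 13 IP fragments over 6.61, a fold of 1.84 (1.04 to 3.05) and a q of 0.255. LOC_Os05g04820 followed with 20 fragments over a background of 10.4, a fold of 1.84 and a q of 0.101. LOC_Os02g46940 had 11 fragments over 5.19 (fold 1.94, q 0.232), and LOC_Os04g45020 had 11 over 4.44 (fold 2.21, q 0.0981). LOC_Os07g44090, described as related to the Hv33 protein, had 12 fragments over 5.19 (fold 2.10, q 0.113). The remaining 4 were LOC_Os02g04640, LOC_Os01g74020, LOC_Os01g08680 and LOC_Os05g41166, given above. LOC_Os05g46610 passed just inside, with a q of 0.0499 from 13 fragments over 5.19, and LOC_Os01g08680 was the nearest outside. At this depth such peaks cannot be told from background by their counts alone.

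Fold and fragment number parted where the background was high. LOC_Os09g31454 had 33 IP fragments at its summit, more than MYB61, but over a background of 16.5, the highest of the group, which left a fold of 1.94 with a q of 0.00779. Its summit lay 1619 bp inside the gene. Another listed peak, on LOC_Os09g31458, had its summit 762 bp upstream of the start of LOC_Os09g31454 and a higher fold of 3.00, so the peak tied to this MYB gene was not the strongest in its window. The fold is by definition a ratio to the background, and why the background was high here was not tested.

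Several members had identical values, with the same whole-number IP count over the same background. LOC_Os01g09280, LOC_Os03g20090 and LOC_Os04g45060 each had 13 fragments over 4.44 and a fold of 2.57. LOC_Os02g54520, LOC_Os05g49310 and LOC_Os08g34960 each had 14 over 5.19 and a fold of 2.42. LOC_Os01g51260 and LOC_Os06g35140 had 19 over 4.44 and a fold of 3.68, although the summit lay 1469 bp inside the first gene and 208 bp upstream of the other. Differences of 1 or 2 fragments between members lie within the intervals of such counts (6.92 to 22.2 for 13 fragments), so they do not fix an order.

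The wording of the descriptions split the group unevenly. The 68 genes described as MYB family transcription factors had a median fold of 3.37, with 48 summits upstream. The 9 myb-like DNA-binding domain genes had a median of 2.85 and 8 of 9 summits upstream, 5 of them within 250 bp of the start. The 8 genes described as Myb transcription factors had a median of 2.65, LOC_Os08g25799 being the highest. The 4 MYB protein genes had a median of 3.12 and the summit downstream in 3 of 4. The 4 myb-related genes had a median of 2.41, led by LOC_Os10g33810, described as related to Myb4, at 4.20-fold and 488 bp upstream. LOC_Os06g43090, whose description names TaMYB1, had a fold of 2.43 with the summit 946 bp inside the gene. These are small sets, given as values with no order drawn.

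Members lay on all 12 chromosomes. Chromosome 1 held 22 genes (23.2% of members, against 15.8% of all listed genes). Chromosome 2 held 15 (15.8%, against 11.9%) and chromosome 5 held 12 (12.6%, against 8.65%). Chromosome 3 went the other way, with 8 (8.42%, against 14.2%). These shares were not tested, and the spread of all rice MYB genes over the chromosomes is not known here. Pairs of members with starts within 50 kb of each other were found 3 times. On chromosome 6, LOC_Os06g45840 and LOC_Os06g45890 start 36825 bp apart and had similar peaks, with folds of 4.002 (2.85 to 5.48) and 4.20 (2.77 to 6.12) and summits 170 and 207 bp upstream. On chromosome 5, LOC_Os05g41166 and LOC_Os05g41240 start 43226 bp apart, with folds of 2.10 and 2.85 and summits 28 and 236 bp upstream. On chromosome 4, LOC_Os04g45020 and LOC_Os04g45060 start 22183 bp apart, with folds of 2.21 and 2.57, the summit being 2015 bp upstream of the first and 694 bp inside the other. In each pair the intervals of the folds overlap.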

How the data were processed

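The study had 1 IP and 1 input library, grouped by their sample titles. Per the labels' protocols, chromatin was crosslinked for 15 min in 1% formaldehyde, and nuclei were sheared by sonication to 300 to 500 bp. The submitters' processing notes name MACS2 2.2.7.1, Bowtie2 2.4.2, Picard and SAMtools. The sources used here give no genome build, annotation release or calling threshold. The authors deposited peaks of the IP joined to genes, 1 peak a gene, where the peak reached within 2000 bp of the gene start on either side. The deposited fold is a ratio of IP to background, and the deposited p and q values are −log10. The deposited score was the −log10 p times 10, cut to a whole number, for 14706 of 14709 genes. These values are the authors' own. Coordinates are as deposited, counted from 1.

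IP fragment counts and backgrounds were recovered by solving fold = (pileup + 1) / (background + 1) with the Poisson upper tail, which the peak caller uses. This gave whole numbers for 12486 of 12487 peaks and all 95 members, where the computed −log10 p was within a tolerance of 0.0002 plus 0.0001 times the deposited one. The step was tested on data simulated from the same formula, with backgrounds all above the lowest real one of 4.44. That test checks the solving and not whether the formula fits the deposited values. No library totals come with these sources. Python 3.11.15, pandas 2.3.3 and SciPy 1.17.1 were used.

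Members, role lists (25 identifiers from general knowledge) and the rule for named genes were chosen with earlier results of these data known. The rule named MYB61, the 12 highest and 5 lowest folds, the 5 summits nearest the start, the 5 widest peaks, members with q above 0.05 or a shared peak, members within 50 kb of each other, list members and those next to a threshold. Other genes were named after their values were seen. No identifier matched the reference gene table (0 of 14709), and no genome was used, so no sequence is shown and a planned search of promoters for E-boxes was not run.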

Additional observations from a re-analysis of the deposited data

How the results depend on the processing

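Of 41 alternatives over 8 summary values of the MYB genes, 37 gave a value within the 95% binomial interval of the main one (within 1.5 times it for the number of members). These restricted the genes to those described as MYB family transcription factors, to peaks on a single gene, to summits in the gene or within 2 kb upstream, to peaks under 2 kb wide or to a q of 0.05 or less, or counted distinct peaks. These sets hold all or a large part of the same 95 genes, so values near the main one were largely fixed in advance. Their agreement is thus no independent check. The interval is only a yardstick, because genes of 1 library are not replicates. The exceptions also follow from how the alternative is built. Without the 1 added to pileup and background, the median fold was 3.66 against 3.30. At a q of 0.01 the share of members called was 73.7% against 89.5% (all listed genes at 0.01: 77.3%). At a fold of 6 the share of members was 8.42% against 31.6% (all listed genes at 6: 7.54%). With 500 bp around the start in place of 250 bp, the share of summits was 45.3% against 31.6% (all listed genes at 500 bp: 48.4%). No paired analysis was possible because there was 1 IP and 1 input. Leaving out a library was not possible for the same reason. Depth limits the weaker members: a fold from 13 fragments had an interval of 1.04 to 3.05 over a background of 6.61, and 1.46 to 4.27 over 4.44.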
